A study of Saccharomyces cerevisiae with 6 samples.

Results

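Copper and zinc are both needed and toxic, and the budding yeast Saccharomyces cerevisiae keeps each within limits by changing which transporters and binding proteins it makes. Levels of 8 genes of this system were followed in 6 RNA-seq libraries of poly(A) RNA, 3 of snf2Δ cells and 3 of wild type cells. The genes were chosen by name, as CTR1 (YPR124W), CTR3 (YLR411W), CUP1-1 (YHR053C), CUP1-2 (YHR055C), CUP2 (YGL166W), ZRT1 (YGL255W), ZRT2 (YLR130C) and ZAP1 (YJL056C), and are 8 of the 7127 features in the count table. Snf2 is the motor of the Swi-Snf remodeler, which slides and evicts nucleosomes, and the comparison asks which transcripts change when it is lost in rich medium. Both genotypes were made in HHY221, a W303 MATa parent strain for anchor-away experiments. It carries TOR1-1, a deletion of FPR1 (fpr1Δ) and RPL13A fused to FKBP12, so the wild type here shares these alleles with the mutant. The mutant adds snf2Δ::natMX6. Cells were grown without rapamycin in YPD at 30 °C and taken in log phase, at an OD600 of about 0.4 to 0.8. Neither labels nor methods state that the 3 samples of a genotype came from separate cultures. The p-values therefore cover only the spread among the samples at hand, which may be technical.

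Copper enters the cell after surface reductases such as Fre1 turn it into the reduced ion, which Ctr1 and Ctr3 carry across the plasma membrane. The transcription factor Mac1 activates the genes of this uptake route when copper is short. When copper is in excess, Cup2 (also called Ace1) binds it and activates CUP1, which encodes a small metallothionein that holds copper through its many cysteines. Zinc enters through Zrt1, the high-affinity transporter, and Zrt2, the low-affinity transporter, and Zap1 activates both genes and its own when zinc is short.

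Libraries held 4134546 to 4667287 counts for snf2Δ and 4627141 to 6708036 for wild type. SNF2 itself had 6 to 9 counts in the snf2Δ libraries, against 298 to 365 in the wild type libraries. Levels are given in CPM, the usual depth-scaled count of RNA-seq, taken relative to the library's total after that total was scaled by TMM, edgeR's correction for differences in RNA composition. Markers of the a mating type were detected in every library (MFA1 at 77.3 to 264.9 CPM and STE2 at 561.1 to 897.1 CPM), whereas the α-factor genes MFALPHA1 and MFALPHA2 had at most 3 counts in a library. Other α-cell markers were detected, STE3 at 0.816 to 3.10 CPM and SAG1 at 38.8 to 49.3 CPM. In a principal component analysis, the first component (76.5% of the variance) parted the genotypes, and the second (9.98%) set wild type replicate 3, the most deeply sequenced library, apart from the rest. CTR1, FRE1, FRE7, SLF1 and IZH1 are among the genes for which that library stood far from the other wild type libraries, and are given with and without it. IZH2, IZH4 and HNT1 are others.

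Of the 8 genes, 6 passed the filter on low counts. Across all 5641 features tested by edgeR's quasi-likelihood F test, 34.4% had a Benjamini-Hochberg adjusted p under 0.05, 16.6% higher in snf2Δ and 17.8% lower. Of the 6 genes tested, 2 rose (CUP2 and ZAP1), 3 fell (CTR1, ZRT1 and ZRT2) and 1 did not pass (CTR3). The metal transporters that passed were all lower in snf2Δ, and the regulators CUP2 and ZAP1 were both higher. Their median log2 fold change was −0.11, against −0.02 over all features tested, and none of the 6 had a log2 fold change above 2 in size, a limit passed by 2.82% of all features. The genotypes did not overlap for 4 of the 6 genes, against 46.6% of all features.

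Stretches upstream of ZRT1, CTR1, FRE1 and CUP1 are shown because they hold the letters that Zap1, Mac1 and Cup2 are known to bind. A match is a description of the sequence and not a measured site. Short stretches of the R64 reference genome (the release on which sacCer3 is based) were searched on both strands over the 500 bases before each start codon, with distances counted to the end of the match nearest the start codon. The zinc-responsive element, to which Zap1 binds, was searched as ACCTTNAAGGT, and these letters stand before 9 of 6000 genes (0.15%). One of them is ZRT1, 194 bases before its start codon, at chrVII:20759-20799 with the element in capitals. ZRT2 and ZAP1 do not have these letters in this window.
ZRT1: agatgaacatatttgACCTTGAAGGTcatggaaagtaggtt

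The core of the Mac1 site was searched as TTTGCTC and stands before 517 of 6000 genes (8.62%). CTR1 has a pair in opposite orientation, 328 and 305 bases before its start codon (chrXVI:785859-785895 and chrXVI:785882-785918). FRE1, the reductase gene that is also a Mac1 target, has 3, at 280, 263 and 90 bases (chrXII:568266-568302, chrXII:568283-568319 and chrXII:568456-568492). Of the 5 promoters on the list of Mac1 and its other targets, 2 hold these letters (FRE1 and IRC7), and FRE7, REE1 and MAC1 do not have them in this window. Nor does CTR3, but in the reference genome a Ty2 retrotransposon ends 102 bases before its start codon. Most of the CTR3 window is thus Ty2 sequence, so the search cannot show whether a CTR3 promoter without the element holds these letters. The zinc genes ZRT1 and ZRT2 each have 1 match to this short motif. The plus strand is shown, with the core in capitals in either orientation.
CTR1, site at 328: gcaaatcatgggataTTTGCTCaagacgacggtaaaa
CTR1, site at 305: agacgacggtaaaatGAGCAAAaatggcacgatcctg
FRE1, site at 280: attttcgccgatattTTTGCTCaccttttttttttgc
FRE1, site at 263: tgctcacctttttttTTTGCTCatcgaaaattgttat
FRE1, site at 90: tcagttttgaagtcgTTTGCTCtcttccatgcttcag

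The Ace1 consensus, a looser pattern, stands before 30.4% of genes, and 5 matches lie before CUP1. A pair of them is shown on the coding strand, at 265 and 236 bases before the start codon of CUP1-1 (chrVIII:212970-213009 and chrVIII:212941-212980, minus strand), with the match in capitals.
CUP1-1, match at 265: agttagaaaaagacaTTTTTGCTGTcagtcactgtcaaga
CUP1-1, match at 236: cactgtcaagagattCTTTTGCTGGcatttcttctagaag

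CTR1 encodes the main high-affinity copper transporter of the plasma membrane and has a single coding exon of 1221 bases on the plus strand (chrXVI:786208-787428). Its level was 298.7, 238.2 and 220.8 CPM in snf2Δ replicates 1 to 3, against 642.9, 489.5 and 248.7 CPM in wild type replicates 1 to 3. The means were 252.5 ± 40.9 CPM and 460.4 ± 198.7 CPM (SD, n = 3 each). CTR1 was thus 1.82-fold lower in snf2Δ (log2 fold change −0.86 ± 0.25 SE, adjusted p = 0.0136 by edgeR), but wild type replicate 3 lay within the range of the snf2Δ libraries. Without wild type replicate 3 the log2 fold change was −1.17 (adjusted p = 2.47e-05), and without wild type replicate 1 it was −0.55 and did not pass (adjusted p = 0.0742). Leaving out snf2Δ replicate 2 (adjusted p = 0.0584) or snf2Δ replicate 3 (adjusted p = 0.0857), or using the DESeq2 Wald test (adjusted p = 0.0935), ended the call as well, each time with CTR1 lower in snf2Δ.

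CTR3 encodes the other high-affinity copper transporter of the plasma membrane (chrXII:947253-947978, plus strand, 1 coding exon of 726 bases). It was expressed at far lower levels than CTR1, at 15.4, 10.3 and 6.71 CPM in the snf2Δ libraries, against 8.47, 5.92 and 6.25 CPM in the wild type libraries. These rest on 67, 47 and 27 counts in snf2Δ and 41, 29 and 39 counts in wild type, and the groups overlapped. The log2 fold change was 0.67 ± 0.30 SE and did not pass (adjusted p = 0.0948). Leaving out snf2Δ replicate 3, the lowest of its group, gave 0.90 and passed (adjusted p = 0.0357), whereas leaving out snf2Δ replicate 1, the highest, gave 0.34 (adjusted p = 0.431). In the reference genome a Ty2 retrotransposon (YLRWTy2-1, chrXII:941192-947150) ends 102 bases before the CTR3 start codon, where many laboratory strains carry it. Whether HHY221 carries it was not checked.

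Set against each other per kb of coding length, CTR1 stood 11.5, 13.8 and 19.6 times above CTR3 in the snf2Δ libraries, against 45.1, 49.2 and 23.6 times in the wild type libraries. The ratio averaged 14.9 ± 4.15 in snf2Δ and 39.3 ± 13.7 in wild type (SD, n = 3 each), without overlap. An exact two-sided permutation test gave p = 0.1, the smallest that 3 libraries against 3 allow. Wild type replicate 3, where CTR1 was lowest among the wild type libraries, also had the lowest ratio of that genotype.

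**Figure D1:**
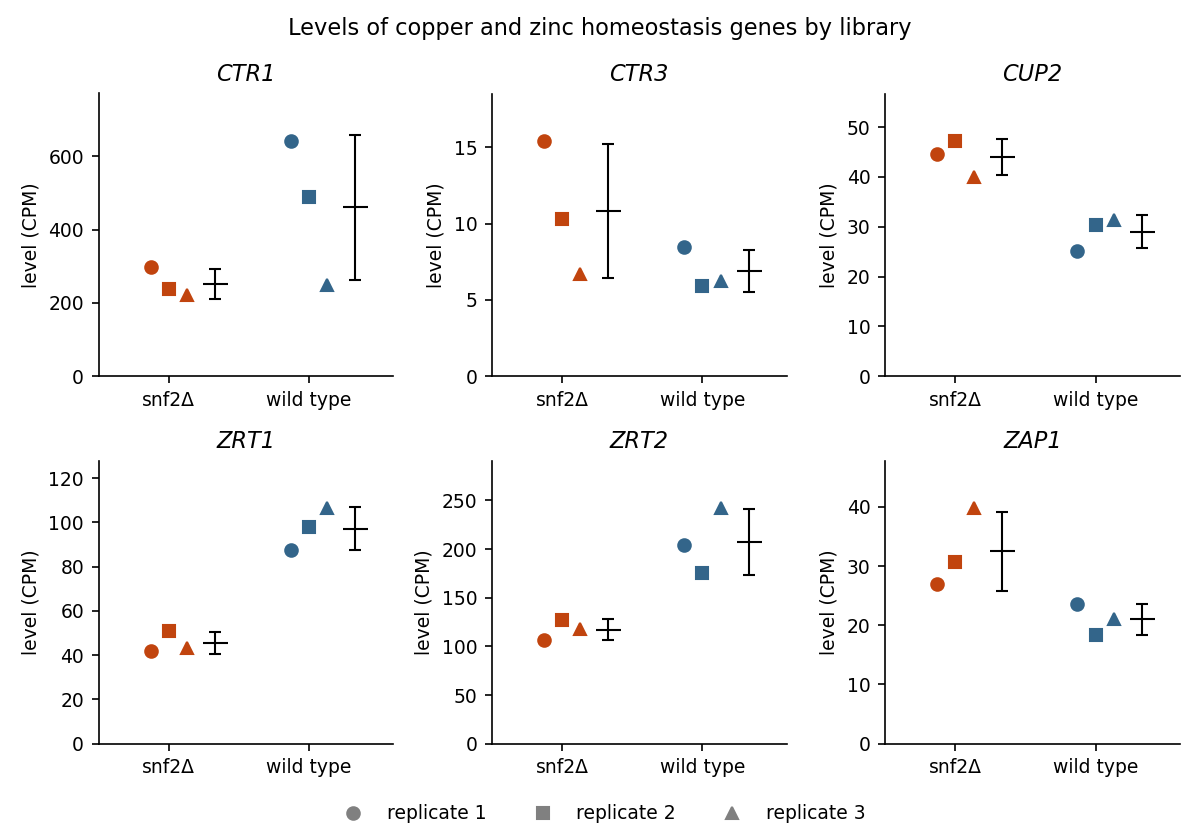
Levels of the 6 detected copper and zinc genes in each library, in CPM scaled by TMM on linear axes that start at 0, with snf2Δ left of wild type. Symbols give replicate 1 (circle), 2 (square) and 3 (triangle), and bars give the mean ± SD of 3 libraries. ZRT1 and ZRT2 were lower and CUP2 and ZAP1 higher in snf2Δ without overlap, whereas the wild type CTR1 levels ran between 248.7 and 642.9 CPM and overlapped those of snf2Δ.

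CUP1-1 and CUP1-2 are 2 identical copies of the metallothionein gene, the protein product of which binds copper and protects the cell from it. Both lie on the minus strand of chromosome VIII, at chrVIII:212535-212720 and chrVIII:214533-214718, and each copy has 1 coding exon of 186 bases. Each overlaps the non-coding RNA gene RUF5 on the opposite strand and a dubious reading frame on its own. The shared coding sequence is shown once, with the codons for cysteine in capitals, because they are what makes this small protein a metallothionein.
CUP1-1 and CUP1-2: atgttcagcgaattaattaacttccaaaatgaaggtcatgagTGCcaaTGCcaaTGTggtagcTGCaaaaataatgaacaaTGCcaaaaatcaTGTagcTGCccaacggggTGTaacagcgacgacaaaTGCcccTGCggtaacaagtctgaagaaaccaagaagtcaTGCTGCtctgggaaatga

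Cysteine takes 12 of the 61 codons before the stop (19.67%), and of 5985 genes of 30 codons or more only 1 has a higher share. The median gene has 1.18%. Among the other genes followed here the share was 5.33% in CUP2 (12 of 225 codons), 4.66% in ZAP1 (41 of 880) and 4.56% in CTR3 (11 of 241), in each case above that median. Cup2 holds copper through a cluster of cysteines, and Zap1 is a zinc-finger protein.

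No reads were counted for CUP1. CUP1-1, CUP1-2 and their sum were at 0 in all 6 libraries, so no fold change was computed. A count of 0 allows up to 3 counts, which is 0.691, 0.657 and 0.746 CPM in the snf2Δ libraries and 0.62, 0.612 and 0.481 CPM in the wild type libraries, and this covers counting error only. Per kb that floor was 3.53 to 4.01 CPM in snf2Δ and 2.59 to 3.33 CPM in wild type. The methods do not state how reads that match both copies were treated, so these zeros are not a measure of CUP1 RNA in either genotype.

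The copies show 0 differences, lie 1998 bases apart, and sit in a repeat in which 1988 bases in a row (chrVIII:212266-214253) recur unchanged at that distance. Of the 112 windows of 75 bases in each copy, 0 occur once in the genome, whereas every such window of the 6 other genes followed here does. The window is as long as the reads in the study's methods, which give paired reads of 75 bases. Over the table, 87 protein-coding genes had no window of their own. Of these, 56 were at 0 in all libraries, and the highest total over the 6 libraries was 128 counts. Of the 5920 genes that did have such a window, 83 (1.4%) were at 0. RUF5-1 and RUF5-2, the RNA genes on the opposite strand, also have 0 windows of their own and were at 0 in all 6 libraries.

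The neighbours of CUP1 show how far the zeros reach. YHR054C, a reading frame between the copies that also has no window of its own, had 4, 2 and 3 counts in the snf2Δ libraries, against 8, 15 and 14 in the wild type libraries, and was removed by the filter on low counts. RSC30, the gene next to CUP1-2 and a subunit of the RSC remodeler, has unique sequence in 61.4% of its windows. It was at 35.9, 25.6 and 35.1 CPM in snf2Δ, against 43.8, 45.7 and 41.7 CPM in wild type, and the difference did not pass (log2 fold change −0.44 ± 0.17 SE, adjusted p = 0.0509). The number of CUP1 copies in HHY221 was not checked.

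CUP2 encodes the copper-binding activator of CUP1 (chrVII:191129-191806, plus strand, 1 coding exon of 678 bases). It was at 44.7, 47.3 and 40.0 CPM in snf2Δ, against 25.2, 30.4 and 31.4 CPM in wild type, and the genotypes did not overlap. CUP2 rose 1.51-fold in snf2Δ (44.0 ± 3.68 CPM against 29.01 ± 3.34 CPM, SD, n = 3 each), with a log2 fold change of 0.60 ± 0.16 SE (adjusted p = 0.00905 by edgeR). A correction for GC content and length lowered this to 0.35 and ended the call (adjusted p = 0.097), and so did leaving out wild type replicate 1 (0.51, adjusted p = 0.0641). CUP2 has 47.4% GC, the highest among the genes followed here.

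SOD1, the copper and zinc superoxide dismutase and another target of Cup2, was also higher in snf2Δ, and a link to the change of CUP2 was not tested. It was at 650.5, 871.1 and 761.2 CPM in snf2Δ, against 511.9, 518.2 and 544.1 CPM in wild type (log2 fold change 0.54 ± 0.14 SE, adjusted p = 0.00894). With the GC and length correction it was 0.17 and did not pass (adjusted p = 0.452), nor did it pass without snf2Δ replicate 2 (0.43, adjusted p = 0.0649). CRS5, the other Cup2 target on the list, was not analysed here.

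The genes of the copper shortage route were described from a list of Mac1 and its targets other than CTR1 and CTR3. Of 5 genes, all tested, 4 fell (FRE1, FRE7, IRC7 and REE1) and 1 rose (MAC1), with a median log2 fold change of −1.06 against −0.02 over all features. Thus 4 of the 5 were lower, beside 17.8% of all features, on a list chosen with earlier results of these data known.

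MAC1 itself was higher in snf2Δ, at 55.0, 54.3 and 56.7 CPM, against 40.1, 41.4 and 45.4 CPM in wild type (log2 fold change 0.38 ± 0.14 SE, adjusted p = 0.0480), a call that 9 of 17 alternatives ended. FRE1, the reductase with 3 Mac1 cores shown above, was at 134.5, 116.5 and 113.6 CPM in snf2Δ, against 336.7, 270.9 and 156.7 CPM in wild type. It was 2.09-fold lower (log2 fold change −1.06 ± 0.21 SE, adjusted p = 0.00120), without overlap, and without wild type replicate 3 the log2 fold change was −1.32 (adjusted p = 2.02e-06). FRE7, another metal reductase gene, was at 78.3, 66.6 and 43.3 CPM in snf2Δ, against 252.7, 168 and 55.2 CPM in wild type, and overlapped (log2 fold change −1.32 ± 0.37 SE, adjusted p = 0.0119). Without wild type replicate 1 it was −0.81 and did not pass (adjusted p = 0.0512), and without wild type replicate 3 it was −1.74. FRE7 also did not pass without snf2Δ replicate 3 (adjusted p = 0.0918) or with the DESeq2 Wald test (adjusted p = 0.0969).

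CTR1, FRE1 and FRE7 shared a pattern within the wild type, and in both genotypes their levels ran down from replicate 1 to replicate 3. With the replicate number as a block, the log2 fold changes were −0.78 ± 0.17 SE for CTR1, −1.01 ± 0.16 SE for FRE1 and −1.16 ± 0.20 SE for FRE7. On the log2 scale, wild type replicate 3 minus the mean of wild type replicates 1 and 2 was −1.17 for CTR1, −0.95 for FRE1 and −1.89 for FRE7, each lower than the 5th percentile of all features (−0.70). SLF1, a gene of copper resistance grouped here with the copper carriers, had −1.05. The same difference was −0.49 for REE1, a regulator of enolase, and 0.19 for IRC7, which encodes a beta-lyase that acts on cysteine conjugates. That library also stood apart on the second principal component, whose part in these values was not tested.

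IRC7 had the largest change on the Mac1 list, at 89.4, 96.8 and 121.3 CPM in snf2Δ, against 452, 473.3 and 527.1 CPM in wild type. It was 4.73-fold lower (log2 fold change −2.24 ± 0.15 SE, adjusted p = 1.89e-08). REE1 was at 121.6, 152.4 and 124.3 CPM in snf2Δ, against 270.8, 198.2 and 165.2 CPM in wild type (log2 fold change −0.67 ± 0.17 SE, adjusted p = 0.00751). Neither overlapped between genotypes. REE1 did not pass without wild type replicate 1 (−0.45, adjusted p = 0.0612) or without snf2Δ replicate 1 (−0.60, adjusted p = 0.0529).

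**Figure D2:**
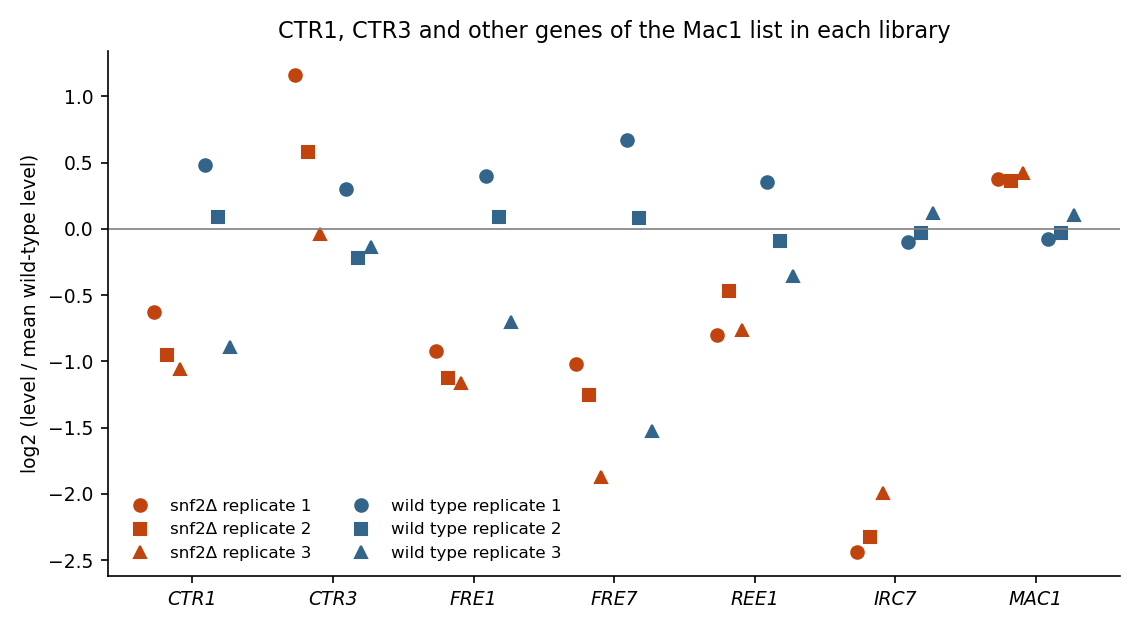
CTR1, CTR3 and the other genes of the Mac1 list in each library, as log2 of the level over the mean wild type level of that gene, with snf2Δ (red) left of wild type (blue) and symbols for replicates 1 to 3. For CTR1 and FRE7, wild type replicate 3 (blue triangle) sits among the snf2Δ points, whereas IRC7 is far below wild type in all 3 snf2Δ libraries.

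Copper that has entered the cell is handed on by chaperones and carriers. The list of such genes also took in SLF1 and CUP9, which are neither, and all 11 genes on it were tested. Of these, 4 fell (CCS1, COX11, PIC2 and SLF1), 2 rose (CTR2 and ATX1) and 5 did not pass, beside 17.8% of all features lower and 16.6% higher. Their median log2 fold change was −0.25, against −0.02 over all features. PIC2, a mitochondrial carrier of copper and phosphate, was at 41.7, 47.9 and 41.3 CPM in snf2Δ, against 314, 363.3 and 365.1 CPM in wild type. It was 7.95-fold lower (log2 fold change −2.99 ± 0.15 SE, adjusted p = 6.96e-10), the largest change among the copper and zinc genes tested. CTR2, which releases copper from the vacuole, moved opposite to CTR1, at 77.4, 99.6 and 89.8 CPM in snf2Δ, against 52.5, 45.7 and 58.1 CPM in wild type (log2 fold change 0.77 ± 0.15 SE, adjusted p = 0.00109).

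CCS1, the chaperone that loads Sod1 with copper, was lower in snf2Δ (log2 fold change −0.78 ± 0.13 SE, adjusted p = 2.79e-04), while its client SOD1 was higher. COX11, which delivers copper to cytochrome c oxidase, had a log2 fold change of −1.09 ± 0.19 SE (adjusted p = 3.59e-04). SLF1, an RNA-binding protein known for its part in copper resistance, was at 15.9, 9.41 and 12.2 CPM in snf2Δ, against 38.0, 36.7 and 17.8 CPM in wild type (log2 fold change −1.28 ± 0.28 SE, adjusted p = 0.00255), and without wild type replicate 3 the log2 fold change was −1.58. ATX1, the chaperone of the secretory route, overlapped between genotypes (log2 fold change 0.64 ± 0.22 SE, adjusted p = 0.0328), and 5 of 17 alternatives ended its call. Its partner, the copper pump CCC2, did not pass (0.20 ± 0.16 SE, adjusted p = 0.351).

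ZRT1 encodes the high-affinity zinc transporter (chrVII:20978-22108, plus strand, 1 coding exon of 1131 bases). It was at 41.7, 51.0 and 43.3 CPM in snf2Δ, against 87.4, 97.8 and 106.5 CPM in wild type, and every snf2Δ library lay below every wild type library. The means were 45.3 ± 4.99 CPM and 97.2 ± 9.55 CPM (SD, n = 3 each). ZRT1 was 2.15-fold lower in snf2Δ (log2 fold change −1.10 ± 0.15 SE, adjusted p = 3.32e-05), the smallest adjusted p among the 6. Over 17 alternatives its log2 fold change ran between −1.20 and −1.02 and it passed in each.

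ZRT2 encodes the low-affinity zinc transporter (chrXII:402794-404062, minus strand, 1 coding exon of 1269 bases). Its level was 106.2, 127.4 and 117.8 CPM in snf2Δ, against 204.7, 175.1 and 242.1 CPM in wild type, again without overlap. The means were 117.1 ± 10.7 CPM and 207.3 ± 33.6 CPM (SD, n = 3 each), a 1.77-fold lower level in snf2Δ (log2 fold change −0.82 ± 0.15 SE, adjusted p = 4.93e-04). It passed under each of 17 alternatives, with log2 fold changes between −0.94 and −0.70. For both zinc transporters, wild type replicate 3 was the highest wild type library, opposite to its place for CTR1.

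ZAP1 encodes the activator of the zinc shortage genes (chrX:330431-333073, minus strand, 1 coding exon of 2643 bases). It was at 26.9, 30.7 and 39.8 CPM in snf2Δ, against 23.6, 18.4 and 21.0 CPM in wild type. The groups did not overlap, although snf2Δ replicate 1 and wild type replicate 1 lay close together. ZAP1 rose 1.54-fold in snf2Δ (32.5 ± 6.61 CPM against 21.0 ± 2.59 CPM, SD, n = 3 each), with a log2 fold change of 0.62 ± 0.19 SE (adjusted p = 0.0181). The call was lost without snf2Δ replicate 3 (0.46, adjusted p = 0.105) and without wild type replicate 2 (0.54, adjusted p = 0.0691).

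Activator and transporters thus moved in opposite directions. Per kb, ZRT1 stood 3.62, 3.89 and 2.54 times above ZAP1 in the snf2Δ libraries, against 8.67, 12.4 and 11.8 times in the wild type libraries (3.35 ± 0.712 in snf2Δ and 11 ± 2.03 in wild type, SD, n = 3 each). For ZRT2 over ZAP1 the ratio was 7.68 ± 1.33 in snf2Δ and 20.7 ± 3.03 in wild type. The ratio of the transporters to each other, ZRT2 over ZRT1, was 2.31 ± 0.106 in snf2Δ and 1.90 ± 0.268 in wild type. No ratio overlapped between genotypes, and the exact two-sided permutation test gave p = 0.1 for each, the smallest possible. For the ratios to ZAP1 this outcome was fixed in advance and adds nothing to the genes taken singly. ZRT1 and ZRT2 were lower, and ZAP1 higher, in every snf2Δ library than in every wild type library. With the ratio of CTR1 to CTR3, 4 such ratios were computed, and the Benjamini-Hochberg adjusted p over them was 0.1 for each.

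Other genes that Zap1 activates did not follow ZRT1 and ZRT2 as a group. Of 17 tested, 6 rose, 1 fell and 10 did not pass, with a median log2 fold change of 0.13 against −0.02 over all features, of which 16.6% were higher and 17.8% lower. VEL1 was removed by the filter on low counts. Without wild type replicate 3, IZH2 (log2 fold change 0.34, adjusted p = 0.0423 by edgeR) and MCD4 (0.38, adjusted p = 0.0426) passed as well, whereas ZRG17 did not (0.37, adjusted p = 0.0502). UTH1, a gene of the SUN family of cell wall proteins, was at 3939, 5235 and 5104 CPM in snf2Δ, against 1583, 1268 and 1406 CPM in wild type, 3.35-fold higher (log2 fold change 1.75 ± 0.18 SE, adjusted p = 1.93e-06). TSA1, the main cytosolic peroxiredoxin, was at 2199, 2635 and 2500 CPM in snf2Δ, against 986.9, 935.2 and 1071 CPM in wild type (log2 fold change 1.29 ± 0.15 SE, adjusted p = 9.04e-06).

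ZRT3, which releases zinc from the vacuole, was at 239.9, 262.9 and 262.8 CPM in snf2Δ, against 154.3, 141.7 and 191 CPM in wild type (log2 fold change 0.65 ± 0.14 SE, adjusted p = 0.00216). It moved opposite to the plasma membrane transporters. IZH1, of a family of membrane proteins linked to zinc, was at 233.5, 224 and 237.7 CPM in snf2Δ, against 98.1, 91.7 and 164.4 CPM in wild type (0.97 ± 0.19 SE, adjusted p = 8.86e-04), and without wild type replicate 3 the log2 fold change was 1.29. ZPS1, a GPI-anchored cell surface protein, rose to 22.6, 22.8 and 16.9 CPM in snf2Δ, against 11.4, 7.55 and 11.6 CPM in wild type (1.02 ± 0.22 SE, adjusted p = 0.00214). ZRG17, a zinc carrier of the secretory pathway, had a log2 fold change of 0.39 ± 0.15 SE (adjusted p = 0.0482), a call that 10 of 17 alternatives ended.

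FET4 was the only gene of this list that fell, and like ZRT1 and ZRT2 it encodes a plasma membrane transporter, of iron, copper and zinc with low affinity. It was at 104.1, 106.2 and 91.0 CPM in snf2Δ, against 277.4, 248 and 192.9 CPM in wild type, without overlap. FET4 was 2.38-fold lower in snf2Δ (log2 fold change −1.25 ± 0.15 SE, adjusted p = 1.32e-05). ZRC1, which loads zinc into the vacuole, did not pass (−0.25 ± 0.16 SE, adjusted p = 0.233).

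ZRT1 lies near the left end of chromosome VII beside other Zap1 targets, VEL1 (chrVII:11110-11730), MNT2 (chrVII:12481-14157) and ADH4 (chrVII:15159-16307). Neither tested neighbour shared its change. ADH4, the zinc-sparing alcohol dehydrogenase, had a log2 fold change of 0.13 ± 0.15 SE (adjusted p = 0.547), and MNT2, a mannosyltransferase, of 0.01 ± 0.14 SE (adjusted p = 0.954). FZF1, the sulfite resistance regulator on the other side of ZRT1, rose to 36.7 ± 2.57 CPM in snf2Δ, against 25.8 ± 3.51 CPM in wild type (SD, n = 3 each, log2 fold change 0.50 ± 0.17 SE, adjusted p = 0.0284).

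The zinc-bound alcohol dehydrogenases that Zap1 represses were ADH1 and ADH3. ADH3, the mitochondrial enzyme, fell (log2 fold change −0.42 ± 0.14 SE, adjusted p = 0.0286), a call that 5 of 17 alternatives ended, and ADH1, the main fermentative enzyme, did not pass (−0.21 ± 0.19 SE, adjusted p = 0.445). Of 5 other zinc transport genes (COT1, MSC2, YKE4, IZH3 and IZH4), 0 passed by edgeR, DESeq2 or limma-voom. COT1 alone had an unadjusted p under 0.05 in edgeR (log2 fold change 0.34 ± 0.14 SE, adjusted p = 0.0646).

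**Figure D3:**
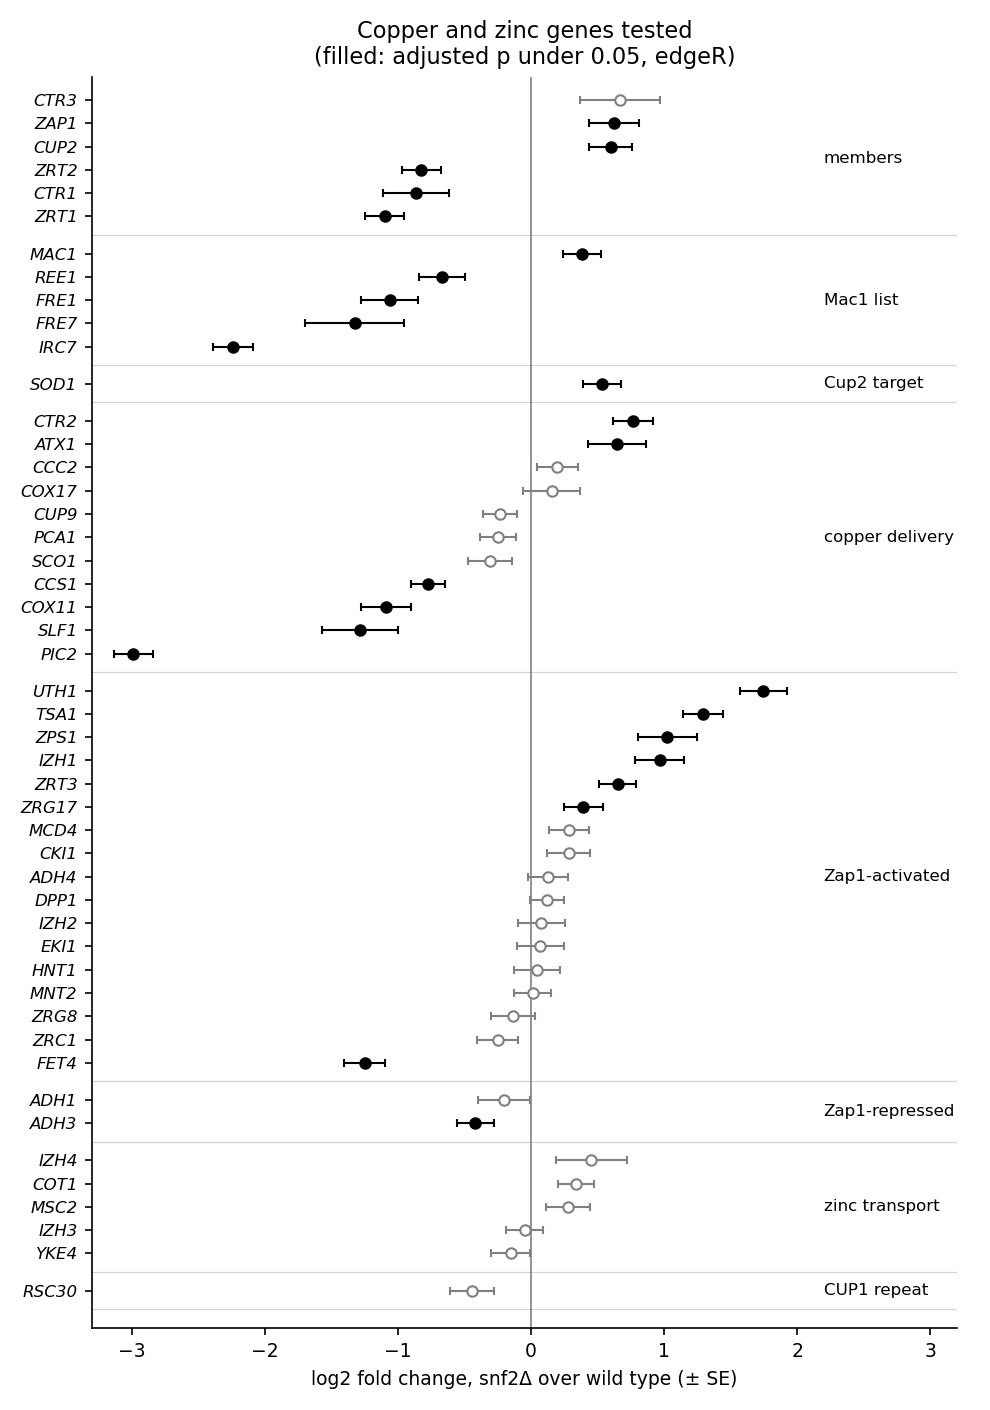
Log2 fold change of snf2Δ over wild type ± SE for the 48 copper and zinc genes tested by edgeR, grouped by list and ordered by value within each. Filled points passed at an adjusted p under 0.05 and open points did not. Of the 6 genes at the top, CUP2, ZAP1 and CTR3 (an open point, 0.67) lie right of 0 and ZRT2, CTR1 and ZRT1 left of it. Over all lists, PIC2 is lowest at −2.99.

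Compared per kb of coding length, the 6 genes kept a broad order of levels. In snf2Δ the order was CTR1 (206.8 ± 33.5 CPM per kb), ZRT2 (92.3 ± 8.39), CUP2 (64.9 ± 5.43), ZRT1 (40.1 ± 4.42), CTR3 (14.9 ± 6.04) and ZAP1 (12.3 ± 2.50), each the mean ± SD of 3 libraries. In wild type it was CTR1 (377 ± 163 CPM per kb), ZRT2 (163.4 ± 26.5), ZRT1 (85.9 ± 8.45), CUP2 (42.8 ± 4.93), CTR3 (9.48 ± 1.91) and ZAP1 (7.94 ± 0.980). CUP2 and ZRT1 changed places, with CUP2 above ZRT1 in every snf2Δ library and below it in every wild type library. CTR3 and ZAP1 overlapped in both genotypes, while the ranges of all other neighbours in these orders were apart.

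The features most like each gene were found from their log2 levels over the 6 libraries, each centred on its own mean, among 5145 features with a mean of at least 10 CPM. For CTR1 they were MLP2 at a Euclidean distance of 0.322 and GIP2 at 0.440, against a median of 1.48 over all features compared. MLP2 shared the low value of wild type replicate 3, at 38.5 CPM against 94.4 and 86.3 CPM in the other wild type libraries. The nearest to ZRT1 were MAL11 (0.212) and ULA1 (0.242), and the nearest to ZRT2 were YER158C (0.229) and HTA1 (0.239). CUP2 was nearest to NAS6 (0.126) and AYT1 (0.159), ZAP1 to CPR4 (0.191) and ISC1 (0.198), and CTR3, with its low counts, to IDP2 (0.445) and COA6 (0.446). These distances describe 6 libraries of 2 genotypes, and many features share such a profile.

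**Figure D4:**
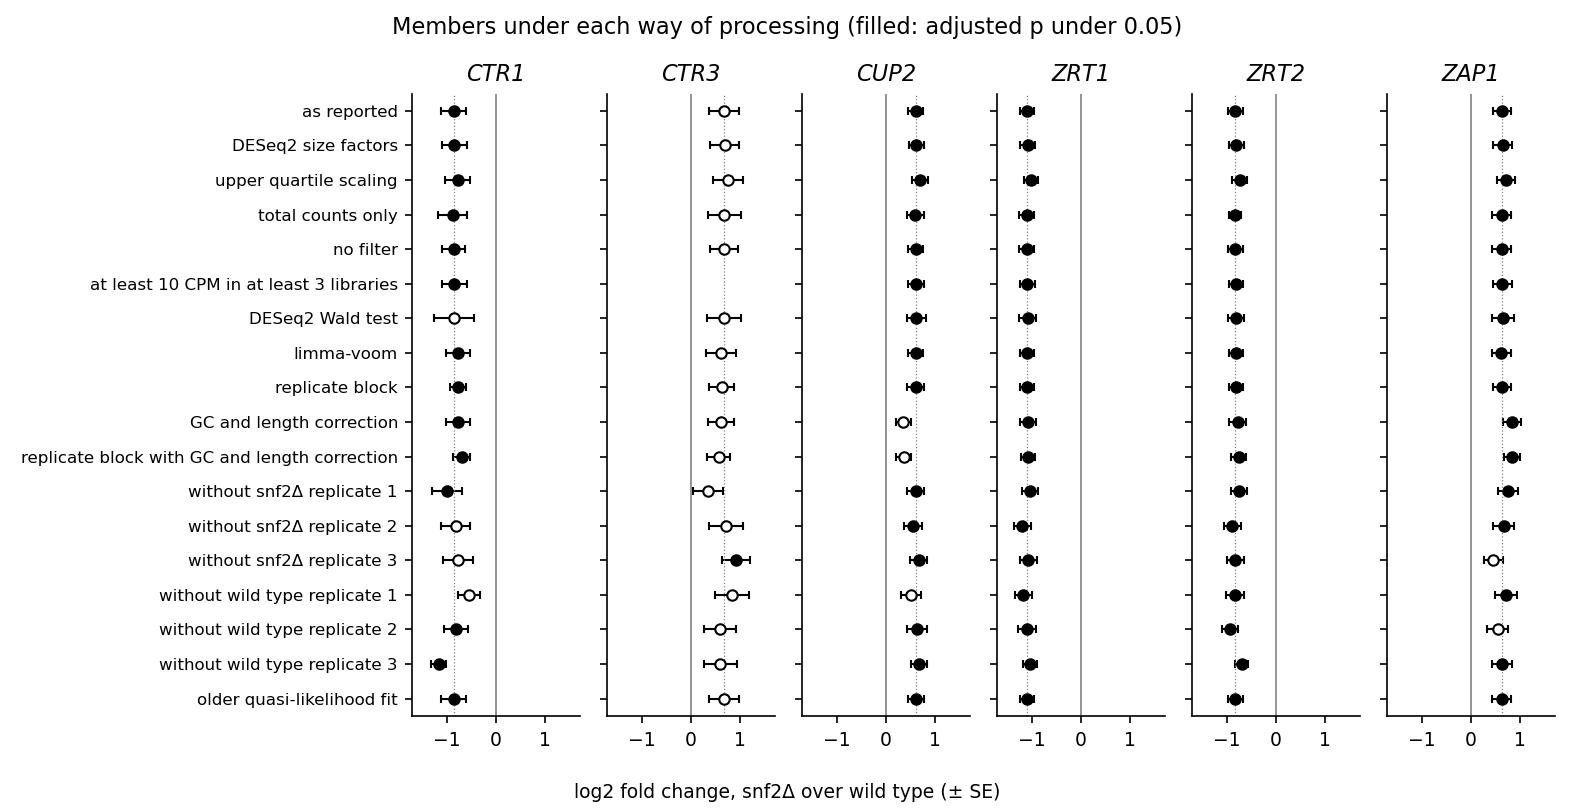
Log2 fold change of snf2Δ over wild type ± SE of the 6 genes under the analysis as reported and under each of 17 alternatives, filled where the adjusted p was under 0.05. The dotted line marks the value as reported. ZRT1 and ZRT2 are filled in every row, CTR1, CUP2 and ZAP1 lose the call in some, and CTR3 (removed by the stricter filter) gains it in 1.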

How the data were processed

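The authors deposited a table of raw read counts, with 1 row per annotated feature and 1 column per library, neither normalized nor pooled. Per the submitters' processing notes and the study's methods, bcl2fastq 2.18, STAR 2.7.3a and RSEM 1.3.0 were used, with sacCer3 as the build. For the counting, the rules on strand and on multi-mapping reads were not given in the sources used here. Overlapping genes may therefore share counts, and identical copies may have lost theirs. The labels describe hot phenol extraction, and the study's methods a column kit.

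Groups and replicate numbers came from the labels. Counts were fitted in R 4.3.3 with edgeR 4.0.16 (filterByExpr, TMM, quasi-likelihood F test, genotype as the only term), with p-values adjusted by Benjamini-Hochberg over all features and SNF2 left out of the counts of features. The SE is the log2 fold change divided by the square root of F. Levels are CPM scaled by TMM. Positions, lengths and sequences came from RefSeq's R64 annotation, which 6047 of 7127 features matched. Of 1784 genes with positions in the study's supplement, 1780 had the same coordinates. The likeness search used a prior count of 2. Scripts were tested on simulated data.

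Named were all 8 genes, genes of 7 copper and zinc lists written from general knowledge, the 2 nearest features by profile and genes that flank ZRT1 or CUP1. One flanking gene is not reported here. These genes and lists were chosen with earlier results of these data known. Alternatives were 3 other scalings, 2 other filters, DESeq2 1.42.0, limma-voom (limma 3.58.1), a replicate block, a GC and length correction (loess span 0.5), both together, each library left out, and an older quasi-likelihood fit, added after seeing the data.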

Additional observations from a re-analysis of the deposited data

How the results depend on the processing

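Of 25 copper and zinc genes that passed, 15 passed under all 17 alternatives, among them ZRT1 and ZRT2. None of the 25 changed sign, and no alternative moved the median log2 fold change of all features by more than 0.086. The number of the 8 followed genes that rose was 2 as reported and 1 with the GC and length correction, with or without the replicate block, and 1 to 2 with a library left out. On the Mac1 list, the number that rose was 0 with total counts, without a filter, with the DESeq2 Wald test and with the replicate block, and 0 to 1 with a library left out, while 2 to 4 fell with a library left out (2 without wild type replicate 1). SOD1, the Cup2 target, was called in 0 of 1 with the GC and length correction, with or without the block, and in 0 to 1 with a library left out. Of the copper delivery genes, 1 rose with total counts and 1 to 2 with a library left out. Of the genes that Zap1 represses, 0 fell with upper quartile scaling or the GC and length correction, and 0 to 1 with a library left out. Of the other zinc transport genes, 1 rose with upper quartile scaling, 2 with the block and GC and length correction together, and 0 to 3 with a library left out (3 without wild type replicate 3). Of the neighbours of the CUP1 repeat, 1 fell without a filter, and it was YHR054C (adjusted p = 0.0215 by edgeR), which rests on few counts and has no window of its own. With limma-voom 1 fell, which was RSC30 (adjusted p = 0.0453), and 0 to 1 fell with a library left out. The cause was not tested. Over all features, upper quartile scaling gave 1204 higher and 808 lower, against 939 and 1003 as reported, and leaving out a library gave 685 to 1184 higher and 730 to 1311 lower. Deviations of same-numbered libraries of the genotypes had correlations of 0.155, −0.040 and 0.126, against −0.198 to 0.132 for libraries with different numbers. These few values do not settle whether the numbers pair the samples, and the fit as reported did not pair them. The replicate block gave 986 higher and 1072 lower features and ended the call of no followed gene. CUP1 had 0 counts in every library and gave no value under any alternative, and CTR3 gave none under the stricter filter. At 27 to 67 counts per library, the depth limits what can be said of CTR3.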
